A study of Mus musculus with 2 samples.

Results

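The cells described here were 52 spiral ganglion neurons of the library labelled iCKO that were rich in Calb2 RNA and held no Runx1 RNA. Their own values chose them: Lypd1 below 100 CPM (counts per 1000000), Calb2 of at least 10000 CPM and Runx1 at 0. They were 52 of the 869 cells measured and 52 of the 407 cells of their library. The study measured RNA in single neurons sorted for tdTomato from the mouse cochlea, with the 10x Genomics 3′ assay and 1 library per genotype. Control mice (iCON) were Runx1-CreER/+; Ai14/+, and the iCKO mice were Runx1-CreER/Runx1F; Ai14/+, so that they also had a floxed Runx1 allele. CreER is a recombinase that acts only after tamoxifen, and Ai14 is a tdTomato reporter that Cre switches on. Both groups, controls included, carried the driver and the reporter, received tamoxifen on postnatal day 1 and were taken between postnatal days 27 and 29, with both sexes present. The number of animals behind each library is not given in the sources used here, and the label names Runx1 as the driver, so the sort kept cells in which that driver had been active.

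Spiral ganglion neurons carry signals from the hair cells of the cochlea to the brain. Their type I class is commonly divided into Ia neurons, known for calretinin (Calb2), Ib neurons, known for calbindin (Calb1), and Ic neurons, known for Lypd1 and the transcription factor Pou4f1. Runx1 encodes a DNA-binding protein of the Runt family, and in this ganglion it is known as a gene of Ib and Ic rather than Ia neurons. Calretinin and calbindin bind calcium, Rxrg encodes a retinoid X receptor, and Ntng1 encodes netrin-G1, an adhesion protein held to the outer membrane by a lipid anchor.

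The 52 cells were set beside 48 iCON cells that met the same 3 conditions, the native Ia neurons of the control library by this rule. They were also set beside 149 iCKO and 37 iCON cells that met the Calb2 and Lypd1 conditions but held Runx1 RNA, and beside Lypd1-high cells (at least 1000 CPM), of which there were 126 in iCKO and 180 in iCON. The 52 cells held 1923087 UMIs (unique molecular identifiers, each a counted RNA molecule), from 22886 to 48668 per cell with a median of 37442. The iCON cells without Runx1 were deeper, with a median of 50680.5, and the iCKO cells with Runx1 had a median of 34063. Levels below are UMIs per 10000 UMIs, averaged over cells. Since cells from the same library do not replicate its genotype, no test was run and every difference lacks a replicate check. Intervals are at 95% and cover counting error only. No cell barcode was shared between the libraries, and none of the 52 cells was called as a doublet.

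Calb2 and Lypd1 chose these cells, so their levels are a description and only other genes bear on the label. Calb2 ran from 133 to 343 per 10000 with a median of 243. The lowest cells inside the threshold had 13283, 14178 and 14955 CPM, and the nearest iCKO cells outside it, otherwise alike, had 6058, 745 and 142 CPM, with none between. The threshold left out 9 iCKO cells that had little Lypd1 and no Runx1 but less Calb2. Lypd1 was at 0 in 49 of the 52 cells and reached 26.0 CPM in the highest, far under the limit. Rxrg, a marker of Ia neurons that the rule did not use, had a UMI in 45 of the 52 cells, at a mean of 0.912 per 10000. Pcdh20, a protocadherin listed beside it, had a UMI in 41 cells, at 0.517.

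Markers of Ib and Ic neurons were scarce. Of the Ic list, Grm8 gave 1 UMI and Pou4f1 5 UMIs over all 52 cells, and 42 cells held no UMI of any of the 4 Ic markers, Lypd1, which the rule used, among them. Of the Ib list, Calb1 gave 21 UMIs in 7 cells, Lrrc52 5 UMIs in 5 cells and Ttn 26 UMIs in 15 cells, and 29 cells held no UMI of the 3 Ib markers. Ttn had a UMI in 28.8% of the 52 cells, 30.9% of the iCKO cells with Runx1 and 20.8% of the iCON cells without. Its means were 0.132, 0.242 and 0.0770 per 10000. Prph, the peripherin gene known from type II neurons, gave 2 UMIs. Gata3, also on the type II list, gave 88 UMIs in 82.7% of the 52 cells, and 8 cells held no UMI of the 6 type II markers. That list summed to a median of 0.463 per 10000, against 0.435 in the iCON cells without Runx1. The 6 neuron markers summed to a median of 164 per 10000 (123 to 212), against 157 in the iCON cells without Runx1. The myeloid, B cell and endothelial lists each rest on 1 gene: Csf1r and Cd79a were at 0 in all 52 cells, and Cldn5 was above 0 in 1 cell. Fibroblast or bone markers (Col1a1, Col1a2, Dcn and Bglap) were at 0 in 17 of the 52 cells and summed to a median of 0.823 per 10000 (0 to 3.64), against 0.671 in the iCON cells without Runx1 and 0.299 in the iCKO cells with Runx1. Most of it was Col1a2, a collagen gene, with 189 UMIs in 63.5% of the 52 cells, a mean of 0.935 against 0.869 and 0.680. Glial RNA was present in every cell: the 8 Schwann or satellite glia markers summed to a median of 33.9 per 10000 (7.21 to 59.7), against 47.5 (5.10 to 153) in the iCON cells without Runx1 and 31.4 (6.23 to 65.5) in the iCKO cells with Runx1.

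**Figure D1:**
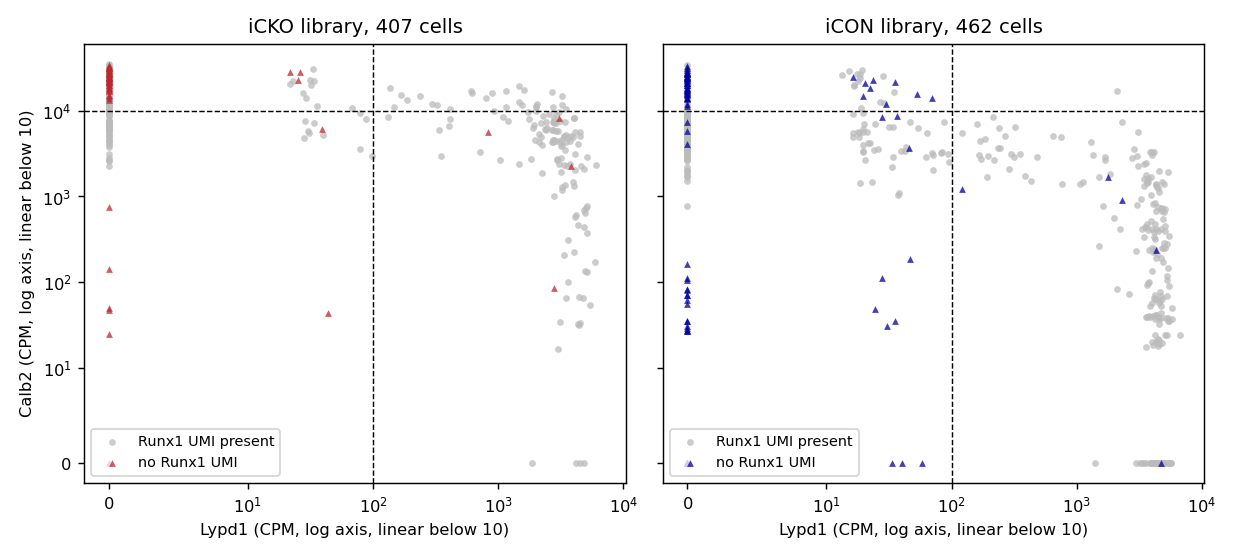
Each point is a cell of the iCKO library (left) or the iCON library (right), by its Lypd1 level (horizontal, CPM) and Calb2 level (vertical, CPM), on log axes that are linear below 10; triangles hold no Runx1 UMI, and dashed lines mark 100 CPM of Lypd1 and 10000 CPM of Calb2. The 52 iCKO triangles above the horizontal line lie at 13283 CPM of Calb2 or more, and 49 of them stand at 0 on the Lypd1 axis.

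Runx1 (GRCm38 chr16:92601466-92826149, minus strand) gave no UMI among the 1923087 UMIs of the 52 cells, which allows up to 0.0156 per 10000. For the 48 iCON cells without Runx1 the limit is 0.0127. A count of 0 chose both groups and is no finding. By itself it does not tell a neuron that never made the RNA from a neuron in which it fell below detection. The sort, however, kept cells in which the Runx1 driver had been active. Tomato RNA was present in all 52 cells. After thinning to 20000 UMIs it ran from 4 to 38 UMIs per cell, with a median of 14. Whether each of these cells had made Runx1 RNA earlier was not tested. In the library labelled iCKO the counted Runx1 RNA was not lower where it was present. The Calb2-high cells with Runx1 held 1.24 per 10000 (1.14 to 1.34) in iCKO and 0.345 (0.271 to 0.434) in iCON. In Lypd1-high cells the levels were 1.44 and 1.12. The Calb2-high cells of that pair of values were chosen for holding Runx1 RNA. Which exons the floxed allele loses is not given in the sources used here, and UMIs read near the end of the RNA can also come from a recombined allele, so these levels do not check the label, and both libraries are called by their labels throughout. Runx2, of the same family, gave no UMI in the 52 cells. Cbfb, which encodes the partner subunit of Runx proteins, gave 43 UMIs in 26 of the cells, a mean of 0.232 per 10000 against 0.184 in the iCON cells without Runx1.

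Cells without Runx1 were a smaller share of Calb2-high cells in iCKO than in iCON, and a similar share of the whole library. They were 52 of 201 Calb2-high cells in iCKO, 25.9% (Clopper-Pearson interval 20.0 to 32.5), and 48 of 85 in iCON, 56.5% (45.3 to 67.2). Of all cells they were 12.8% in iCKO (9.69 to 16.4) and 10.4% in iCON (7.76 to 13.5). The Calb2-high cells as a whole were 49.4% of the iCKO library and 18.4% of the iCON library. A 0 is easier to reach in a shallow cell, and after thinning each cell to 20000 UMIs the shares of Calb2-high cells without Runx1 became 35.3% (28.7 to 42.4) in iCKO and 75.9% (65.3 to 84.6) in iCON. Among cells of at least 30000 UMIs they were 24.2% and 53.8%. In Lypd1-high cells, where Runx1 RNA was common, the share at 0 was 2.38% in iCKO (0.494 to 6.80) and 2.22% in iCON (0.609 to 5.59).

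The comparison with the iCON cells without Runx1 asked how like the native control neurons these cells were. Few genes stood apart: of 3739 genes past a minimum (a mean of at least 0.5 per 10000 and a UMI in at least 25% of cells in either group), 2 were more than 2-fold higher in the iCKO cells, a background of 0.0535%, and 6 more than 2-fold lower, 0.16%, or 8 in either direction, 0.214%. The median log2 ratio was 0.03, and the central 95% of genes lay between -0.50 and 0.47. Ratios are log2 of the means with 0.05 added to each, and their intervals refer to the summed UMIs without that addition, so that in a sparse or uneven gene the ratio can lie outside its interval.

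The 2 higher genes were Eid2 and Basp1. Eid2, which encodes a small inhibitor of differentiation, had a median of 0.518 per 10000 in the 52 cells and 0.138 in the iCON cells without Runx1. The means were 0.547 and 0.153, a log2 ratio of 1.56 (1.18 to 2.29). Basp1 encodes a membrane protein of axon endings, known for its part in axon growth. Its means were 0.810 and 0.333, a ratio of 1.17 (0.93 to 1.74), and a UMI was present in 82.7% of the iCKO and 75.0% of the iCON cells, so the groups overlapped widely. The next highest were Ppp1r14b at 0.96, Sparc at 0.90, Atg13 at 0.87, Hnrnpd at 0.79, Fbll1 at 0.79, N6amt1 at 0.79, Dusp27 at 0.77, Mturn at 0.74, Bag3 at 0.74 and Ube2m at 0.74. All 10 of these were under 2-fold, and N6amt1 turned to -0.44 in cells with Y-linked RNA.

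Of the 6 lower genes, 5 are described here, and none of these 5 is a known marker of a neuron type. Gm1821, a transcribed processed pseudogene, was lowest: its mean was 0.268 per 10000 in the 52 cells and 8.54 in the iCON cells without Runx1, a log2 ratio of -4.76 (-6.02 to -5.05). It had a UMI in 17.3% of the 52 cells and 91.7% of the iCON cells. A processed pseudogene can share reads with its parent gene, so its counts are uncertain. Rn45s, the 45S ribosomal RNA precursor, had a ratio of -1.43 with means of 67.4 and 182, but its medians were closer, 45.3 and 55.2. Mir6236, annotated as a microRNA and also uncertain in a 3′ assay of longer RNAs, had a ratio of -1.91. Also named here are Id3, an inhibitor of DNA-binding factors, at -1.27, and Mt1, a metallothionein, at -1.02.

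Glial RNA moved with this comparison. Of the 5 Schwann or satellite glia markers past the minimum, 4 were lower in the iCKO cells, with a median of -0.70 over the 5, among them Mbp at -0.70 and Pmp22 at -0.65. S100b, which neurons of this ganglion also use, was at 0.03. Cells with little myelin-gene RNA were 32.7% of the 52 cells (20.3 to 47.1) and 29.2% of the iCON cells (17.0 to 44.1). Within those low-myelin cells, 17 and 14 in number, the ratio of Eid2 was 1.29, of Basp1 1.13 and of Gm1821 -4.50. Rn45s was at -1.95 and Mir6236 at -1.96 there, but Mt1 turned to 0.0864, with means of 0.441 and 0.413, and Id3 was at -0.49, no longer past 2-fold. Within the remaining cells, 35 and 34, Eid2, Basp1 and Gm1821 were at 1.69, 1.16 and -4.89, Mt1 at -0.98 and Id3 at -1.27. The share of cells with Xist and no Y-linked RNA, a mark of female cells, also differed between the groups, at 90.4% of the 52 cells and 62.5% of the iCON cells. Within Xist cells alone, 47 and 30, the ratio was 1.75 for Eid2, 1.29 for Basp1 and -6.77 for Gm1821. Within cells with Y-linked RNA, 5 and 17, it was 1.14 for Eid2, 0.63 for Basp1 and -1.52 for Gm1821, whose means were then 2.44 and 7.12. Rn45s turned from -2.05 in Xist cells to 1.15 in those with Y-linked RNA, and Mir6236 from -2.43 to 0.19. Id3 went from -1.31 to -0.55, and Mt1 was at -1.25 and -1.45.

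The genes that name the neuron types lay close together in both groups. Ntng1, an Ic marker, had a mean of 0.0265 per 10000 in the 52 cells (6 UMIs in 3 cells) and 0.0509 in the iCON cells without Runx1 (10 UMIs in 9 cells). The log2 ratio was -0.40, with a counting interval from -2.19 to 1.16 that includes no difference. Calb1 had 0.101 and 0.0752, a ratio of 0.27 (-0.53 to 1.41). Rxrg was somewhat higher in the iCKO cells, 0.912 against 0.659, a ratio of 0.44 (0.16 to 0.80), but in the 5 iCKO and 17 iCON cells with Y-linked RNA the means were 0.426 and 0.852. Pcdh20 had 0.517 and 0.388, a ratio of 0.37 (0.07 to 0.91), but it turned to -0.0559 after thinning to 20000 UMIs, -0.0768 in cells with Y-linked RNA and -0.15 in low-myelin cells.

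**Figure D2:**
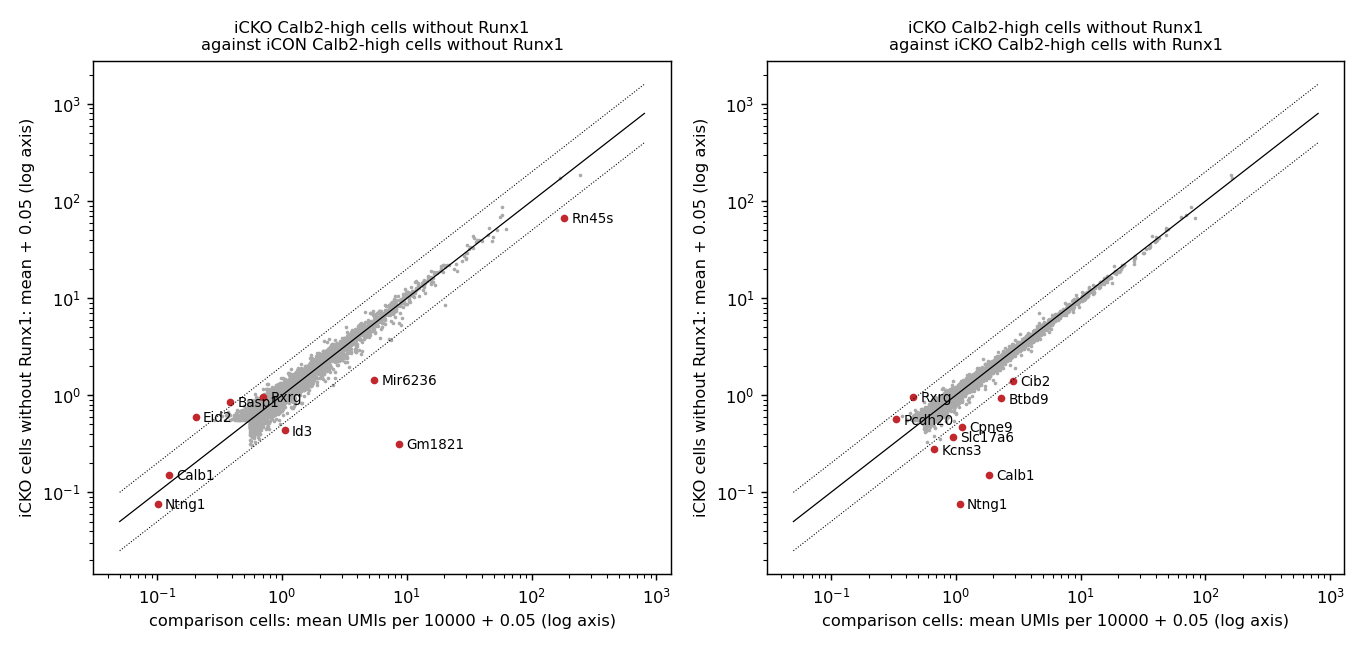
Each grey point is a gene past the minimum, by its mean level in the comparison cells (horizontal) and in the 52 iCKO cells without Runx1 (vertical), both as UMIs per 10000 plus 0.05 on log axes; the solid line marks equal means and the dotted lines 2-fold, and red points are genes named in the text. On the left, against iCON cells without Runx1, Gm1821 lies farthest from the line at a log2 ratio of -4.76; on the right, against iCKO cells with Runx1, Ntng1 at -3.81 and Calb1 at -3.61 lie farthest.

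The next comparison stayed within the iCKO library and set the 52 cells against the 149 Calb2-high cells with Runx1 RNA, which shared their library and its preparation. Of 3637 genes past the minimum, 8 were more than 2-fold lower in the cells without Runx1, a background of 0.22%, and 1 more than 2-fold higher, 0.0275%, together 0.247%. The central 95% of genes lay between -0.32 and 0.32. The 8 lower genes were Ntng1, Calb1, Slc17a6, Btbd9, Kcns3, Cpne9, 1700026D08Rik and Cib2, and the higher gene was Rxrg. Ntng1, Calb1 and Rxrg are listed markers of the Ic, Ib and Ia types. Kcns3 did not part the types in the control library, where its mean was 0.437 in Calb2-high cells without Runx1 and 0.415 in Lypd1-high cells.

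Ntng1 (GRCm38 chr3:109780040-110144011, minus strand) differed most. It was at 0 in 49 of the 52 cells, and the highest of the other 3 had 0.935 per 10000. In the 149 cells with Runx1 the median was 0.845 and the highest 3.57, and 108 cells held a UMI. The means were 0.0265 and 1.03, a log2 ratio of -3.81, and the summed UMIs were 6 and 519, with an interval from -6.47 to -3.89. After thinning to 20000 UMIs, 5.77% of the 52 cells and 67.1% of the 149 held an Ntng1 UMI, and the difference was as plain at this equal depth. The iCKO Lypd1-high cells had a mean of 2.08, above both.

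Calb1 (GRCm38 chr4:15881264-15908064, plus strand) followed. It was at 0 in 45 of the 52 cells and reached 1.18 per 10000, whereas in the cells with Runx1 the median was 1.09 and the highest 7.96. The means were 0.101 and 1.79, a log2 ratio of -3.61 (-4.72 to -3.40). The iCKO Lypd1-high cells, at 0.493, lay between them. Neither Ntng1 nor Calb1 had a UMI in 43 of the 52 cells, 82.7%, and both had in 1 cell. Among the 149 cells with Runx1, 26 had neither, 17.4%, and 98 had both.

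Of the other 6 lower genes, Slc17a6 encodes a vesicular glutamate transporter (VGLUT2). It had a UMI in 26.9% of the 52 cells and in 55.0% of the cells with Runx1, with means of 0.326 and 0.894 and a ratio of -1.33 (-1.53 to -0.81). Btbd9 had close medians, 0.807 and 0.967 per 10000, but different upper ends: the highest of the 52 cells had 3.06 and the highest of the 149 had 20.9. Its means were 0.878 and 2.26, a ratio of -1.32, so the groups parted in the upper tail and not at the median. In iCON Lypd1-high cells the Btbd9 mean was 11.8. Kcns3, which encodes a modifying subunit of voltage-gated potassium channels, had means of 0.228 and 0.624, a ratio of -1.28. Cpne9, of the copine family of calcium-dependent membrane-binding proteins, had 0.426 and 1.08, a ratio of -1.24. Cib2, a calcium- and integrin-binding protein, had 1.36 and 2.85, a ratio of -1.04 (-1.27 to -0.88), and the transcript 1700026D08Rik had a ratio of -1.07. Car12, Rbfox3, Stxbp5l and Ostf1, from -0.83 to -0.67, completed the 12 lowest.

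Rxrg (GRCm38 chr1:167598384-167639623, plus strand) was the gene more than 2-fold higher in the cells without Runx1. Its median was 0.888 per 10000 in the 52 cells, with a highest value of 2.53, and 0.319 in the cells with Runx1, with a highest value of 2.20. The means were 0.912 and 0.408, a ratio of 1.07 (0.87 to 1.46), and 86.5% and 69.8% of cells held a UMI. The ranges overlapped throughout. Pcdh20 was next at 0.77 (0.52 to 1.28), with means of 0.517 and 0.282. Hpcal1, a calcium sensor of the hippocalcin family, was at 0.73, Ebf1, a transcription factor, at 0.62, and Sncg, gamma-synuclein, at 0.61. Zfp804a, a zinc finger gene, had means of 6.92 and 4.61, a ratio of 0.58 (0.50 to 0.69). Ahnak at 0.61, Mturn at 0.60, Afap1l1 at 0.59, Tanc1 at 0.56, Parm1 at 0.51 and Stmn1 at 0.50 completed the 12 highest. Ahnak turned to -0.48 in low-myelin cells and Afap1l1 to -0.67 in cells with Y-linked RNA. Glial RNA differed little here: 4 of 5 markers past the minimum were above 0, with a median of 0.13, and Mbp was at 0.04.

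**Figure D3:**
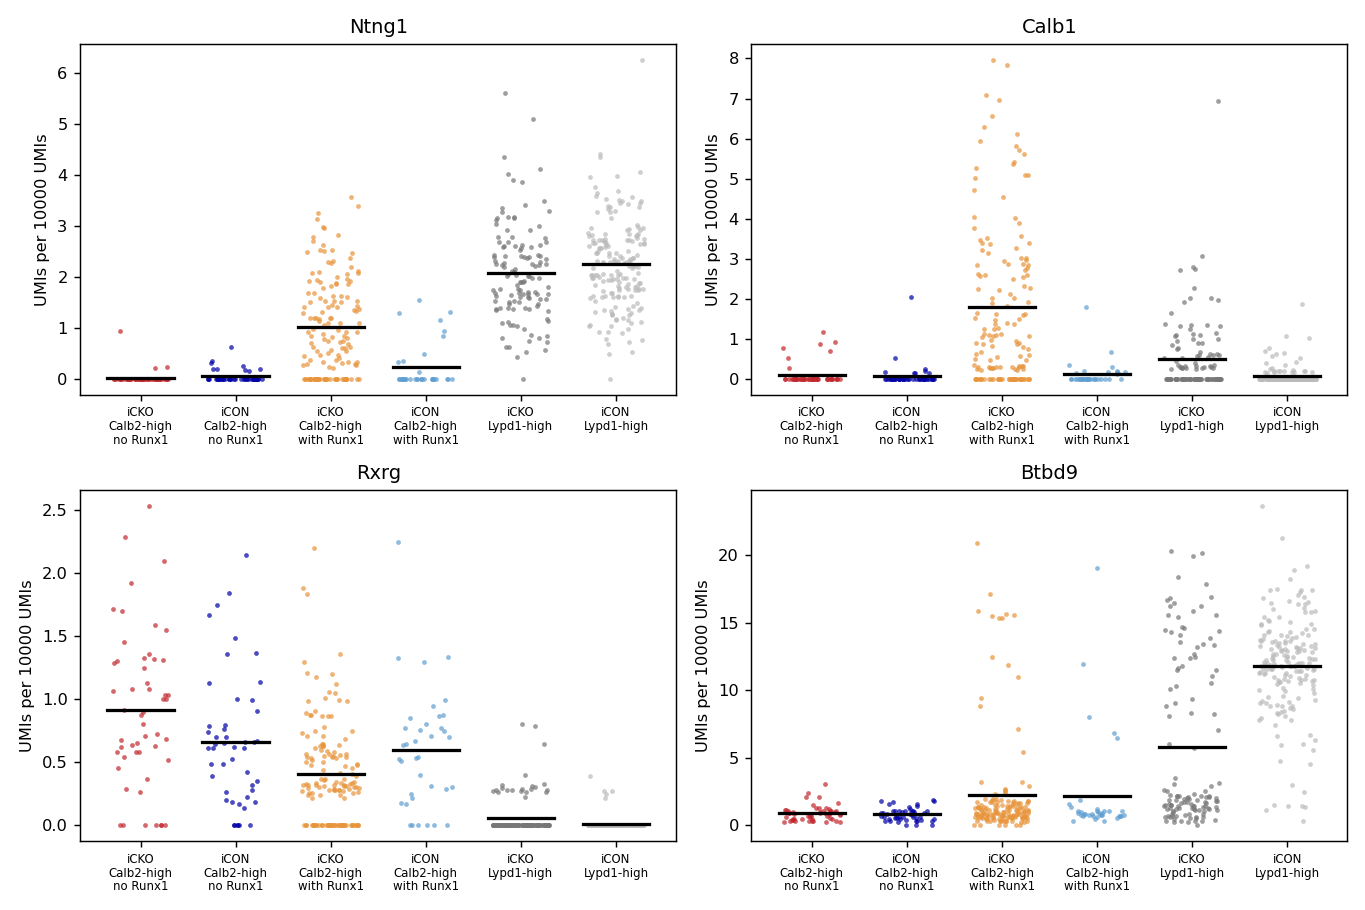
Each point is a cell, by its level of Ntng1, Calb1, Rxrg or Btbd9 in UMIs per 10000 (vertical), in the Calb2-high groups without and with Runx1 and in the Lypd1-high groups of both libraries; bars are means over cells. Ntng1 and Calb1 sit at 0 in most of the 52 cells and are spread up to 3.57 and 7.96 in iCKO cells with Runx1, while Rxrg has its highest mean, 0.912, in the 52 cells.

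The iCKO cells were also ordered by their own Runx1 UMIs, from the 52 cells at 0 to 29 cells with 1 UMI, 24 with 2, 47 with 3 to 5 and 49 with 6 or more. Levels here are summed UMIs per 10000. Ntng1 was at 0.0312 (0.0114 to 0.0679), 0.310, 0.865, 1.10 and 1.41 along these steps, so each step was above the one before. Calb1 was at 0.109, 0.700, 1.10, 1.90 and 2.57. Slc17a6 and Btbd9 were also lowest in the 52 cells, at 0.395 and 0.858, but did not climb at each step. Slc17a6 was highest with 2 Runx1 UMIs, at 1.17, and at 0.990 with 6 or more. Btbd9 was highest with 3 to 5, at 2.56, and at 2.04 with 6 or more. Rxrg was highest in the 52 cells, at 0.920 (0.790 to 1.07), and lay between 0.277 and 0.520 in the steps with Runx1, with no order among them. Pcdh20 was at 0.536 in the 52 cells, 0.450 with 1 UMI and between 0.213 and 0.296 above that. Median depth per step ran from 31823.5 to 37442 UMIs, and the deepest step was that of the 52 cells. Calb2, which the rule used, was at 249 in the 52 cells and 189 with 6 or more Runx1 UMIs.

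**Figure D4:**
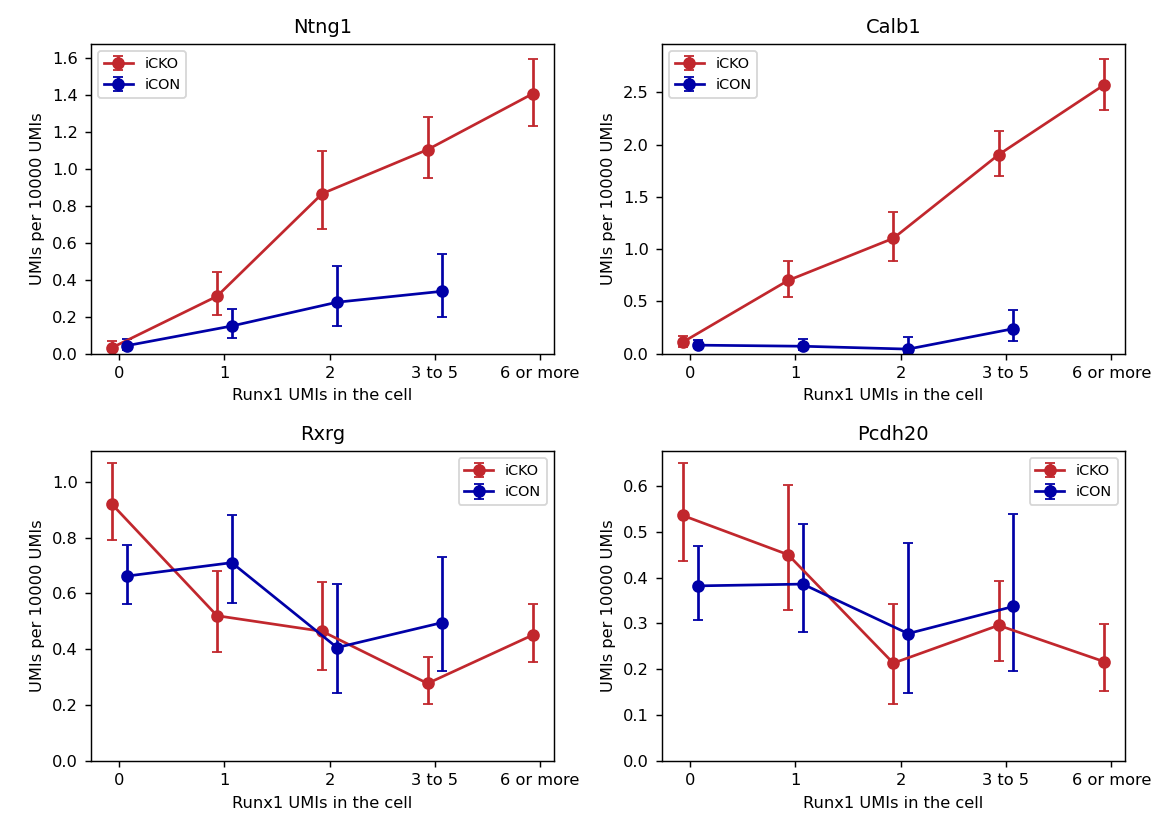
Levels of Ntng1, Calb1, Rxrg and Pcdh20 (vertical, summed UMIs per 10000) in Calb2-high cells grouped by their number of Runx1 UMIs (horizontal), for iCKO in red and iCON in blue; bars are exact Poisson intervals at 95% and cover counting error only. Ntng1 and Calb1 climb from 0.0312 and 0.109 at 0 Runx1 UMIs to 1.41 and 2.57 at 6 or more in iCKO, and no iCON cell had 6 or more.

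In the control library Ntng1 and Calb1 were lower than in iCKO at each step with Runx1 RNA, while Btbd9 was higher at 3 to 5 UMIs. Among iCON Calb2-high cells with 0, 1, 2 and 3 to 5 Runx1 UMIs (48, 20, 8 and 9 cells), Ntng1 was at 0.0424, 0.149, 0.278 and 0.337 per 10000, and Calb1 at 0.0806, 0.0701, 0.0427 and 0.238. At 3 to 5 Runx1 UMIs, Calb1 was therefore at 0.238 (0.123 to 0.415) in iCON and 1.90 (1.70 to 2.13) in iCKO, while at 0 both libraries were near 0.1. Btbd9 reached 3.35 with 3 to 5 Runx1 UMIs in iCON, from 0.768 at 0, and 2.56 at that step in iCKO. The iCON cells were deeper, with medians of 50680.5, 58224.5, 58850 and 55778 UMIs along these steps against 34113 in iCKO at 3 to 5, so an equal number of Runx1 UMIs is not an equal Runx1 level.

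Across all genes, iCON cells without against with Runx1 gave 7 of 3671 genes past 2-fold, 0.191%. Of these, 1 was lower past 2-fold (0.0272%), Btbd9 at -1.37, and Slc17a6 was at -0.94 with means of 0.318 and 0.655. Ntng1, under the minimum in that library, was at -1.45, and Rxrg at 0.13 (-0.19 to 0.51). The 6 higher genes (0.163%) were led by Ptgds at 2.12 and Id3 at 1.35, and glial markers were higher there as well, with a summed median of 47.5 in iCON cells without Runx1 against 37.6 with it. The iCKO cells with Runx1 set against the same 48 iCON cells gave 17 of 3716 genes past 2-fold, 0.457%, of which 8 were higher (0.215%) and 9 lower (0.242%), with Calb1 at 3.88, Ntng1 at 3.41, Btbd9 at 1.44 and Slc17a6 at 1.36. For those 4 genes the 52 cells had ratios of 0.27, -0.40, 0.12 and 0.03. The value for Slc17a6 was not stable: it was -1.83 in low-myelin cells (means 0.126 and 0.576), past 2-fold lower, 0.85 in the remaining cells, 0.91 in Xist cells and -0.97 in cells with Y-linked RNA. Calb1 was at -0.11 in Xist cells, 1.61 in cells with Y-linked RNA, 1.23 after thinning and -0.30 with a Calb2 minimum of 7500 CPM. Ntng1 turned to 0.30 after thinning and was at -1.11 with that Calb2 minimum. Btbd9 was at 1.34 in cells with Y-linked RNA, with means of 1.56 and 0.588. These comparisons share the 48 iCON cells, so their values are given side by side without a measure of likeness.

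The promoters of Ntng1 and Rxrg are shown because these genes had the lowest and the highest ratio among genes past the minimum in iCKO cells without against with Runx1, with that of Runx1 itself. The sequences are from RefSeq on GRCm38.p6, 250 bases before and 50 after the annotated start, 5′ to 3′ on the gene's strand. Capitals mark the Runx core motif in the forms TGTGGT and TGCGGT or, on the other strand, ACCACA and ACCGCA.
Ntng1, chr3:110143423-110143722, minus strand: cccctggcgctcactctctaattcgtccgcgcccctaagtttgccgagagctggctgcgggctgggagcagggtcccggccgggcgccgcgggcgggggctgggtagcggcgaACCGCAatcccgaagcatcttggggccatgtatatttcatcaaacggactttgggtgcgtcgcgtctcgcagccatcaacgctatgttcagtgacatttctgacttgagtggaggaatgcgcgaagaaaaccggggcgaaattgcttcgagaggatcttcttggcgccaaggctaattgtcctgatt
Rxrg, chr1:167598112-167598411, plus strand: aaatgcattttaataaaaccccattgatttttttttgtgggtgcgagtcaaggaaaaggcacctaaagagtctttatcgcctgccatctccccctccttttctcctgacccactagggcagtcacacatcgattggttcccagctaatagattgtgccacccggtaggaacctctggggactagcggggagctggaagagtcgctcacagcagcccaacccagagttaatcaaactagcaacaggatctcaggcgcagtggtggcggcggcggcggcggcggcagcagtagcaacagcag
Runx1, chr16:92826025-92826324, minus strand: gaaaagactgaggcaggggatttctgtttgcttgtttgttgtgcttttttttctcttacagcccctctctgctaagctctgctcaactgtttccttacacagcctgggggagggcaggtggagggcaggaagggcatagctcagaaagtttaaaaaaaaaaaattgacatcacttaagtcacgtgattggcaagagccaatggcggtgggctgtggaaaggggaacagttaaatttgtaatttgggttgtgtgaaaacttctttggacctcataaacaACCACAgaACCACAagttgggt
The Ntng1 window held 1 match, ACCGCA at base 114, the Rxrg window none and the Runx1 window 2, both ACCACA. Runx1 and Rxrg each have a second window in the table, at chr16:92697280-92697579 and chr1:167618015-167618314, and neither held a match. Of the 12 lowest genes of the comparison, 9 had an entry and 2 of these held a match, 22.2%. Of the 12 highest, 10 had an entry and 3 held a match, 30.0%. Counted the same way, by gene with a match in any of its windows, 6764 of 27025 genes held one, 25.03%. Counted by window, 7362 of all 32851 promoters of this length held one, 22.4%. A match in these letters is a description of the window only, and Calb1 and Btbd9 were not analysed here for it.

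A wider view came from lists of 50 genes each, the highest and the lowest of iCON Calb2-high cells without Runx1 against iCON Lypd1-high cells. In that control contrast 1.02% of all genes past the minimum were more than 2-fold higher and 1.65% more than 2-fold lower. The lists rest on control cells alone, and the same contrast was then taken in the other library, the 52 cells against iCKO Lypd1-high cells. The rule divides both contrasts by Calb2 and Lypd1, so some difference is fixed by the choice of cells. A list keeps all of its 50 genes in every contrast, while a background covers only genes past that contrast's minimum. The list genes past the minimum are therefore given as well, but a list gene could pass it through the group where it is high alone. Nothing is read from those shares beside the background. The control ratios chose the lists and are extreme by that choice, so a smaller ratio in the iCKO library is no finding by itself. Of the 50 genes of the control Ia side, 49 were above 0 in the iCKO library and 24 were more than 2-fold higher (22 of the 48 past the minimum), with a median of 0.91 against 1.26 in the control library. Over all 3786 genes past the minimum, 0.713% were more than 2-fold higher and the median was -0.02. Of the 50 genes of the control Ic side, all 50 were below 0 and 42 were more than 2-fold lower (34 of the 40 past the minimum), with a median of -1.59 against -1.74 in the control library and a background of 1.37%. Ccdc109b, on that side, had no UMI in the 52 cells and 347 in the iCKO Lypd1-high cells, at least 52.7-fold lower by a floor of 3 counts over the group, and the list's median is the same with it at that floor.

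Cells with Runx1 gave smaller differences on the Ic side. Against the same iCKO Lypd1-high cells, the 149 cells with Runx1 had 25 of 50 Ic genes more than 2-fold lower (21 of the 40 past the minimum). The Ic median was -0.998, with a background of 0.809%. Of the 50 Ia genes, 16 were more than 2-fold higher (12 of the 42 past the minimum), with a median of 0.84 and a background of 0.404%. Here too a list gene could pass the minimum through the group where it is high alone, so nothing is read from those shares. Directly against the 52 cells, 42 of the 50 Ic genes were lower in the cells without Runx1, 9 past 2-fold, with a median of -0.42. Of these 9, 4 were under the minimum, and the other 5 were among the 20 Ic genes past it, beside a background of 0.22%. An Ic gene could pass the minimum through the cells with Runx1 alone, so nothing is read from that share. On the Ia side 46 of the 50 were higher, 1 past 2-fold against a background of 0.0275%, with a median of 0.25, and 48.6% of all genes were above 0. Set against the iCON cells without Runx1, from which the lists were drawn, the 52 cells had none of the 100 genes past 2-fold, with medians of 0.14 for the Ia side and 0.02 for the Ic side. Of the 50 Ic genes, 36 were under the minimum in both of these groups, and the added 0.05 holds ratios of such low genes near 0, so nothing is read from the count of none. All 50 Ia genes and the other 14 Ic genes were past the minimum, beside a background of 0.214% past 2-fold and 55.1% above 0.

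Single genes of these lists showed where the libraries differed. Rxrg, at a ratio of 3.14 in iCKO and 3.62 in iCON, and Tmem132c, at 2.43 and 3.35, were high in both. Zfp804a had 1.91 and 1.93, and Upp1, uridine phosphorylase, 2.40 and 2.06. B3gat1, which encodes the glucuronyltransferase of the HNK-1 carbohydrate, had 3.72 in iCON and 1.09 in iCKO: the 52 cells, at 1.91 per 10000, were close to the 1.53 of the control cells, while Lypd1-high cells had 0.869 in iCKO and 0.0702 in iCON. Sh3bgr was the only Ia gene below 0, at -0.22 against 2.03 in iCON, with 1.44 in the 52 cells and 1.68 in iCKO Lypd1-high cells. On the Ic side Ntng1 had -4.80 in iCKO and -4.51 in iCON, Pou4f1 -3.92 and -4.25, Slc17a6 -2.99 and -3.19, Pcsk2, a prohormone convertase, -2.89 and -2.87, and Btbd9 -2.66 and -3.80.

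**Figure D5:**
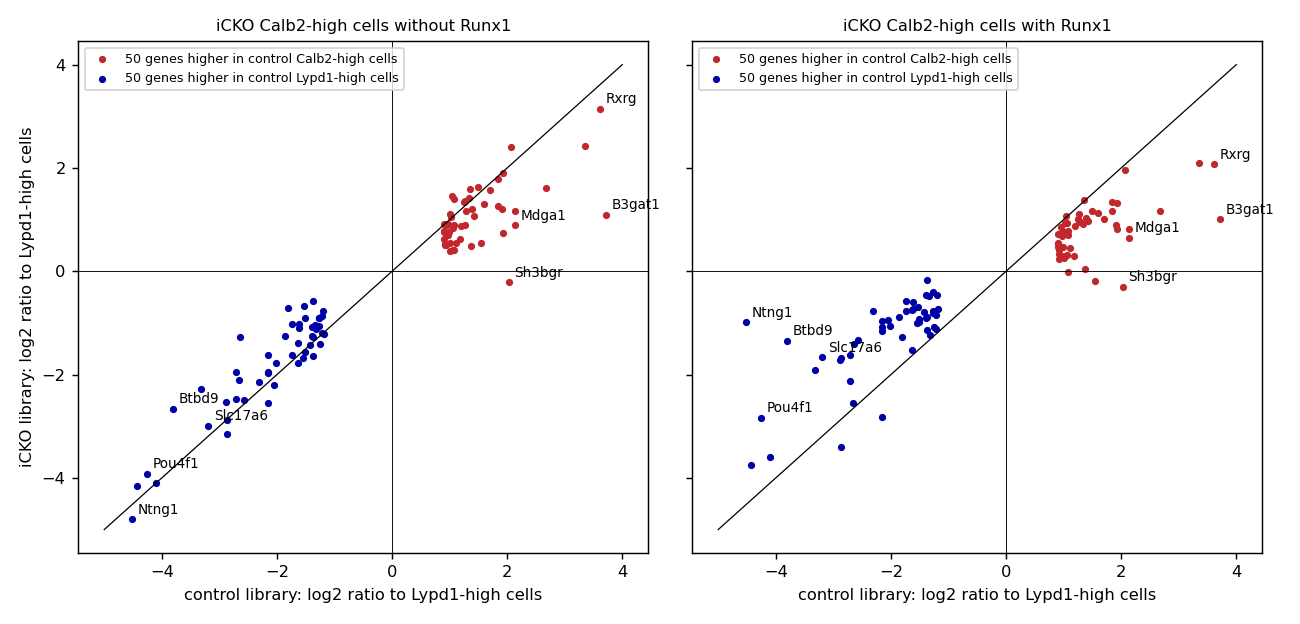
Each point is 1 of 100 genes, by its log2 ratio to Lypd1-high cells in the control library (horizontal, iCON cells without Runx1) and in the iCKO library (vertical), for the 52 cells without Runx1 (left) and the 149 with it (right); red marks the 50 genes highest and blue the 50 lowest in control, and the line marks equal ratios. On the left the medians are 0.91 for red and -1.59 for blue, and Ntng1 lies at -4.80; on the right the blue median is -0.998.

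Genes of firing and release were close between the 52 cells and their iCON counterparts. Of 11 potassium channel genes past the minimum, 10 were above 0, with a median of 0.17, none was past 2-fold, and 55.1% of all genes were above 0. Kcna1, a channel subunit of the axon, had means of 18.9 and 15.6, Kcnc1 8.06 and 7.15, and Kcnip1, a channel-interacting calcium sensor, 0.721 and 0.479, a ratio of 0.54. Kcns3, which is not on that list, went the other way, with means of 0.228 and 0.437. Of 18 genes of presynaptic release, 14 were above 0 with a median of 0.13. Among these Slc17a7, the main vesicular glutamate transporter (VGLUT1) of the ganglion, had 8.27 and 6.81, and Syn2, a synapsin, 0.828 and 0.540. Of 12 neurofilament and axon genes, 9 were above 0 with a median of 0.11: Nefh had 87.1 and 58.1, a ratio of 0.58, and Nefl 50.4 and 52.6, a ratio of -0.06. Of 9 sodium, HCN and calcium channel genes, 5 were above 0, led by Hcn2 at 0.41, with Scn4b lowest at -0.34.

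Against the iCKO cells with Runx1, which share the library, 48.6% of all genes were above 0 and 0.247% were past 2-fold. The median was -0.01 for the 11 potassium channel genes, 0.01 for 19 presynaptic genes, -0.03 for 12 neurofilament and axon genes and 0.07 for 4 glutamate receptor genes, with 1 gene of these past 2-fold, Slc17a6. Kcns3, a potassium channel gene that is not on the list, was more than 2-fold lower, with means of 0.228 and 0.624. Kcna1 had 18.9 in both groups and Nefh 87.1 and 76.6, a ratio of 0.19. Of 8 calcium buffers and sensors, 7 were below 0 with a median of -0.16: Calb1 at -3.61 and Calm2, a calmodulin gene, at -0.26 were lower, and Hpcal1 at 0.73 was the exception. Of 7 transcription regulators of the ganglion, 3 were above 0, Rxrg past 2-fold and Maf at 0.33, with means of 3.70 and 2.94. Of 13 synaptic adhesion genes, 5 were above 0, and Ntng1 was the one past 2-fold.

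Variation among the 52 cells themselves was described gene by gene, without a test. After thinning to 20000 UMIs, the variance over the mean was above 2 in 115 of 3513 genes, and its median was 1.10, where counting alone gives 1. The genes at the top, chosen after their values were seen, were Rn45s at 259, Malat1 at 76.0, Meg3 at 25.5 and Calb2 at 22.9. The rule set a minimum for Calb2, so the choice of cells cut its spread. Rn45s ran from 43 to 1125 UMIs in a thinned cell with a median of 89.0. Pmp22, a myelin protein, ran from 0 to 38. Nefm, a neurofilament subunit, ran from 78 to 228. Of the genes that differed by Runx1, Slc17a6 was present in 14 of the 52 cells and reached 2.67 per 10000, and Calb1 in 7.

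By sex-linked RNA, 47 of the 52 cells held Xist and no Y-linked gene and 5 held a Y-linked gene and no Xist. Most cells behind each mean of the 52 are thus of 1 class, but this need not hold for a gene's UMIs. Those of Gm1821 came mostly from the other class, as given at the end. Within the Xist cells, 47 against 116 with Runx1, the ratio was -3.77 for Ntng1, -3.65 for Calb1, -1.26 for Slc17a6 and 0.997 for Rxrg. In cells with little myelin-gene RNA, 17 against 62, they were -4.12, -3.82, -2.71 and 1.11. The 5 cells with Y-linked RNA held no Ntng1 UMI and 3 Calb1 UMIs, against 102 and 209 in the 31 such cells with Runx1. In that small group Btbd9 lay close, with means of 1.56 and 1.49 and a ratio of 0.07, and Sncg turned, with 0.300 and 0.668 and a ratio of -1.04. Cells without Runx1 were 47 of 163 Calb2-high Xist cells in iCKO, 28.8%, and 30 of 55 in iCON, 54.5%. They were 5 of 36 Y-linked cells in iCKO, 13.9% (4.67 to 29.5), and 17 of 28 in iCON, 60.7% (40.6 to 78.5). The libraries held different shares of each sex, so animal and sex cannot be told apart in these values.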

How the data were processed

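The authors deposited 1 table of natural log (ln) values for all cells and a text label that assigns each cell to a library. Per the submitters' processing notes, Cell Ranger, Seurat and mm10 were used; versions, roles and filters are not given in the sources used here. From the values, each deposited natural log is ln of 1 plus CPM, and each cell's CPM values are whole multiples of its smallest step within 1e-06, so whole UMIs were computed. Depth was 13743824 UMIs in 407 iCKO cells and 22011292 in 462 iCON cells. RNA of genes not in the table is not counted in those sums. The table lists 14425 genes.

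Groups followed the CPM thresholds. Levels, log2 ratios with a pseudocount of 0.05, exact Poisson and Clopper-Pearson intervals, thinning to 20000 UMIs and Scrublet (in scanpy 1.11.5) ran in python 3.11.15 with scipy 1.17.1. The ratio step was tested on simulated data. No test was run with 1 library per group. The members, the gene lists and the tests were chosen with earlier results of these data known. Named genes were the 12 highest and 12 lowest per comparison past the minimum, leaving out Calb2, Lypd1, Runx1, Xist and Y-linked genes, with members of 25 gene lists and the control lists; some of these are not reported here. Low-myelin cells had under 5 per 10000 of 4 myelin genes, a value set after the data were seen. Alternatives changed the pseudocount, gene minimum, weighting, depth, thresholds, sex-linked and myelin classes and doublets.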

Additional observations from a re-analysis of the deposited data

Results flagged for a closer look

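In 2 genes the difference between the 52 iCKO cells and the iCON cells without Runx1 ran opposite ways in cells with Xist and in cells with Y-linked RNA, with counting intervals that lay on opposite sides of 0. Rn45s, the ribosomal RNA precursor, had a log2 ratio of -2.05 in Xist cells (means 58.2 and 241 per 10000) and 1.15 in Y-linked cells (154 and 69.1). Hddc3, which encodes a hydrolase, had -1.42 where Xist was present and 1.09 where Y-linked RNA was. Against iCKO cells with Runx1, Rn45s had -0.43 in the first class and 0.77 in the other. The difference between the classes was not tested. The Y-linked class holds 5 of the 52 cells. Counting intervals leave out the spread between cells, which was wide for Rn45s. After thinning, its variance over the mean was 259 in the 52 cells and 958 in the iCON cells without Runx1.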

How the results depend on the processing

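Of the main values and counts recomputed under alternatives, 69 stayed within the limits set for a move and 13 moved. Genes past 2-fold against iCON cells without Runx1 numbered 8, and became 4 with a pseudocount of 0.5, 64 of 14417 without a gene minimum, 14 after thinning, 25 in Xist cells, 283 in Y-linked cells and 62 in low-myelin cells. Against iCKO cells with Runx1 they numbered 9, and became 3, 27, 5 (a minimum mean of 1 and 50% of cells) and 220 (Y-linked). The 52 cells became 5 in Y-linked and 17 in low-myelin cells, and their share 13.9% in Y-linked cells. Fewer cells entered those subsets. Against iCON, ratios changed sign for Ntng1 (0.30 thinned, 0.0461 at a Calb2 minimum of 15000 CPM, 0.0029 at 30000 UMIs), Pcdh20 (-0.0559 thinned, -0.0768 Y-linked, -0.15 low myelin), Calb1 (-0.30 at 7500 CPM, -0.11 Xist), Slc17a6 (-0.23 at 7500 CPM, -0.97 Y-linked, -1.83 low myelin) and Mt1 (0.0864 low myelin). In Y-linked cells Hddc3 (1.09), Mir6236 (0.19), N6amt1 (-0.44), Rn45s (1.15) and Rxrg (-0.92) also did. Against iCKO cells with Runx1, Afap1l1 (-0.67), Btbd9 (0.0662) and Sncg (-1.04) changed sign in Y-linked cells and Ahnak (-0.48) in low-myelin cells. The causes were not tested. Over all alternatives that comparison gave -4.83 to -1.53 for Ntng1, -4.02 to -1.93 for Calb1 and 0.64 to 1.14 for Rxrg. Depth limits single sparse genes. No paired analysis was possible because each genotype has 1 library.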

Other observations

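Gm1821, the pseudogene with the largest ratio between the libraries among genes past the minimum, followed the sex-linked classes within iCKO but not within iCON. Of its 38 UMIs in the 52 cells, 31 were in the 5 cells with Y-linked RNA, at a mean of 2.44 per 10000, and 7 were in the 47 Xist cells, at 0.0367. In iCKO cells with Runx1 it gave 153 UMIs in 31 Y-linked cells and 9 in 116 Xist cells. In iCON cells without Runx1 the means were 7.12 in Y-linked and 9.40 in Xist cells.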
